A study of Mus musculus with 10 samples.

Results

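The eukaryotic translation initiation factor genes were examined in RNA pulled down with MEX3A from adult mouse neural stem cell cultures. A gene was taken as a member when it was protein-coding, lay on an autosome and had a symbol beginning with Eif followed by a digit from 1 to 6, which gave 49 of the 15899 genes measured. The choice used symbols only, so it includes regulators and relatives that carry the name without being initiation factors in the strict sense, such as the eIF2 kinases, the eIF4E-binding proteins, Eif5a and Eif6. The authors had filtered the deposited matrix, and no further filter on low values was used in the main fits, so all 49 were tested in every comparison. An alternative with a minimum mean log2 value of 3 kept 35 of them. MEX3A is an RNA-binding protein with KH domains and a RING finger, and RNA immunoprecipitation followed by sequencing (RIP-seq) measures the RNA recovered with it. Neurospheres, floating aggregates of neural stem and progenitor cells grown with EGF and FGF, were derived from the subependymal zone of mice of 10 weeks of age. FLAG cultures were homozygous for a knock-in (Mex3aFLAG/FLAG) that adds a 3X-FLAG peptide to the C-terminus of the endogenous MEX3A protein, so the tagged protein was made from its own locus. WT cultures (Mex3a+/+) carried no tag and gave the RNA that the anti-FLAG antibody and beads recover nonspecifically. The immunoprecipitation was done after formaldehyde crosslinking in 2 FLAG and 2 WT libraries and under native conditions, without crosslinking, in 3 FLAG and 3 WT libraries. Every library is an immunoprecipitate and no input RNA was analysed here, so a level depends both on the recovery of an RNA and on its amount in the cells, and these cannot be told apart.

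Initiation brings the small ribosomal subunit to an mRNA and places it on the start codon. The initiator tRNA arrives in a ternary complex with eIF2 and GTP, eIF2B recharges eIF2, and kinases that phosphorylate eIF2 lower its supply under stress. The cap is bound by eIF4E, which joins the scaffold eIF4G and the helicase eIF4A. The eIF4E-binding proteins, which mTOR phosphorylates, block that step. The large complex eIF3 holds these parts on the ribosome, and eIF1, eIF1A, eIF5 and eIF5B select the start codon and join the subunits. In neural stem cells the rate of protein synthesis is low in quiescence and rises on activation. The protein EIF4A2 was among those that the study recovered together with MEX3A, which bears on the protein and not on its mRNA.

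MEX-3 proteins are known to bind a short bipartite RNA sequence, the MEX-3 recognition element (MRE), first defined in the nematode. Its upstream element ends in AG, its downstream element ends in TA, and up to 8 bases separate them. The sites below, from the 3′ UTRs of Eif5a2 and Eif1b, are shown because these genes had the largest FLAG over WT differences among the initiation factors over all libraries. The 2 matches of Eif5a2 are those with no base between the elements, and Eif1b had no others. They were read from the mouse genome GRCm38 in the sense of the transcript, with 5 flanking bases on each side, and capitals mark the match.
Eif5a2, site at chr3:28796297-28796314, plus strand: tcattGTAGTATAtgcat
Eif5a2, site at chr3:28797354-28797371, plus strand: aatccTTAGTATAacata
Eif1b, site at chr9:120495017-120495041, plus strand: cctcgGGAGATGATTCTTTAcagta
Eif1b, site at chr9:120495215-120495233, plus strand: tgttgTTAGTTTTAttttc

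Many mRNAs of the translation machinery begin with a pyrimidine tract, a C followed by a run of C or T bases, through which mTOR and the protein LARP1 control them. Eif2s1 and Eif3f were the only members in which the transcript with the longest coding sequence began with a C and at least 4 further pyrimidines. Starts were taken as annotated, and that of Eif4a2 begins with ATG, so a tract upstream of an annotated start would be missed. The first 20 bases of Eif2s1 and Eif3f are shown with the tract in capitals.
Eif2s1, transcript start at chr12:78861819-78861838, plus strand: CTCTTggttgactaaaactt
Eif3f, transcript start at chr7:108934417-108934436, plus strand: CTCTTTCTCggcaagatggc

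Values are on the log2 scale of the deposited matrix, on which a difference of 1 is a factor of 2. The distribution of values was nearly the same in every library, so the values do not show how deeply each was sequenced. The number of genes tied at a library's lowest value was 329 in FLAG native replicate 1 and 178 in FLAG native replicate 3, against 1 to 3 in the other 8 libraries. No member lay at the lowest value in any library. Mex3a itself was at 3.92 and 4.16 in FLAG crosslinked and at 2.75 and 3.03 in WT crosslinked, and at 5.95, 4.03 and 6.10 in FLAG native against 3.33, 3.52 and 2.89 in WT native, so FLAG native replicate 2 had less of it than the other FLAG native libraries. Genes of the sex chromosomes differed between libraries. Ddx3y, on chromosome Y, lay between 3.23 and 4.36 in WT crosslinked replicate 1 and the 3 WT native libraries, and between -4.66 and 0.90 in the 5 FLAG libraries and WT crosslinked replicate 2. Xist, made from the inactive X chromosome, was at 8.56 to 9.52 in FLAG native and at 3.13, 7.63 and 0.68 in WT native, so WT native replicate 2 had both genes. In the native libraries the level of Ddx3y and genotype go together and cannot be told apart. The neural stem cell markers Egfr (10.10 to 10.90) and Slc1a3 (7.99 to 9.10) were high in all libraries. Markers of other cells were mostly low, with Csf1r (microglia) between -0.15 and 0.97, Pecam1 (endothelium) between -0.49 and 0.62 and Foxj1 (ependyma) between 0.01 and 2.83, but Cx3cr1, also microglial, lay between 3.94 and 4.61. Rbfox3, a marker of mature neurons, was lower in FLAG, with a difference of -1.31 over all libraries (adjusted p = 0.0127 in limma), and Snap25, the other neuronal marker measured, differed by -0.64 (adjusted p = 0.270). Fewer cells of a type and less of its RNA per cell cannot be told apart here, and the part of these genes in the results below was not tested. The methods call the replicates biological replicates of the cultures, while the number of animals behind them is not stated. Same-numbered crosslinked and native libraries of a genotype deviated together, with correlations of 0.178 and 0.154 in FLAG and 0.3 and 0.388 in WT, so results that use both protocols were also fitted with them as pairs. Libraries with unlike numbers correlated up to 0.401, so these values do not show that the pairs share a culture.

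None of the initiation factor genes passed the test of FLAG against WT, in either direction, in any of the 3 comparisons, which were the crosslinked libraries, the native libraries, and the 10 libraries together with a term for the protocol, which hold the libraries of the other 2. A call needed an adjusted p under 0.05 (limma, with p-values of the 15899 genes adjusted by Benjamini and Hochberg) and a log2 difference of more than 0.58. Over all genes, 0% were called in the crosslinked, 0.107% in the native and 0.497% in the all-library comparison, so few genes of any kind passed. With the pairs as a random block, 7 genes were called higher and 8 lower over all libraries in place of 0.497%, and again 0 members. At an unadjusted p under 0.05 and the same size, 1 member (2.04%) was higher in crosslinked FLAG libraries (Eif5a2), 8 (16.3%) in native (Eif1, Eif1b, Eif2ak3, Eif3k, Eif4g2, Eif5a, Eif5a2 and Eif6) and 4 (8.16%) in all libraries (Eif1, Eif1b, Eif5a and Eif5a2). Of all genes, 2.78%, 7.77% and 7.24% were higher by that rule. The native count depended on single libraries: it was 2 without WT native replicate 3, 3 without FLAG native replicate 1, 3 without WT native replicate 1 and 4 without FLAG native replicate 3, but 20, with 4 lower, without FLAG native replicate 2. With all libraries, no member was lower by that rule in any of the 3 comparisons, against 0.987%, 7.06% and 5.28% of all genes. The median difference of the 49 members was 0.04 with crosslinking, 0.28 native and 0.20 over all libraries, beside medians of -0.02, -0.04 and -0.03 over all genes tested. The median standard error of a member was 0.12, 0.29 and 0.20, so that differences of about that size could not be resolved for single genes.

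**Figure D1:**
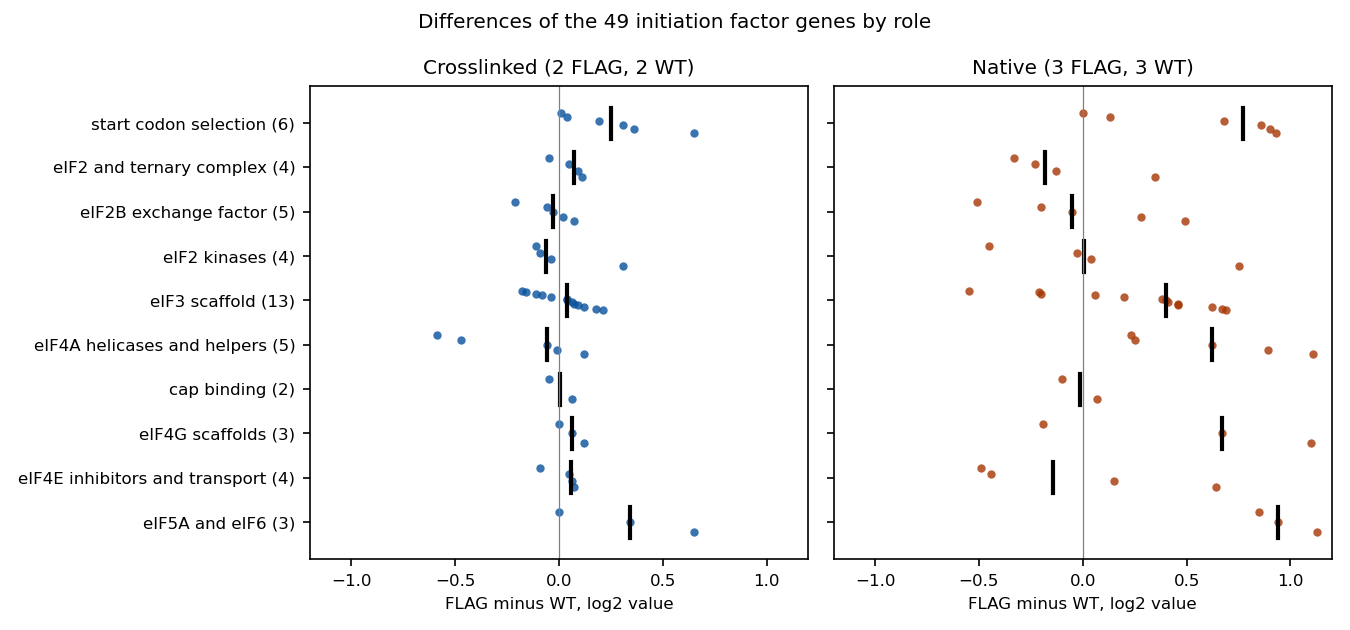
Log2 differences of FLAG minus WT for each of the 49 initiation factor genes (points), grouped by role with the number of genes in parentheses, in the crosslinked (left) and the native (right) libraries, with black bars at the group medians. With crosslinking the group medians lie between -0.06 and 0.34, and native between -0.18 and 0.94, with the start codon selection and the eIF5A and eIF6 groups to the right in both.

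The native shift was seen in 2 of the 3 FLAG libraries. Taken against the mean of the WT native libraries, the median of the 49 members was 0.43 in FLAG native replicate 1 and 0.27 in replicate 3, the libraries with many genes at the lowest value, but -0.06 in replicate 2. WT native replicate 2, set against the other WT libraries, was itself at 0.25. In the crosslinked FLAG libraries the corresponding medians were 0.05 and -0.01. Without FLAG native replicates 1 and 3, an alternative chosen after the values were seen, the median of the members was -0.06 native and -0.01 over all libraries. The native FLAG group is then 1 library whose spread is taken from the WT libraries, so that fit says little about calls. Without FLAG native replicate 2, on the other hand, 15 members (30.6%) were called higher in native FLAG libraries and 3 (6.12%) lower (Eif2ak4, Eif3j1 and Eif4enif1). Of all genes, 9.12% were then called higher and 10.8% lower. The number of genes at the lowest value, the level of Mex3a and the members' median were all higher in FLAG native replicates 1 and 3 than in replicate 2, and the part of each in the shift was not tested.

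**Figure D2:**
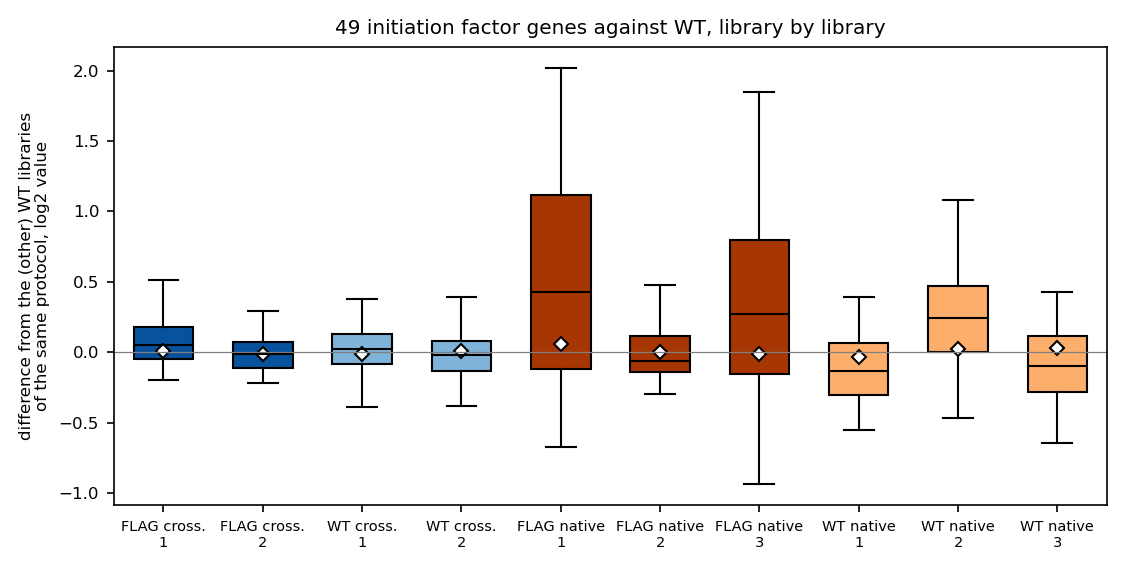
Differences of the 49 initiation factor genes in each library from the mean of the WT libraries of the same protocol, or from the other WT libraries where the library is WT itself (boxes, quartiles with the median, whiskers to the last value within 1.5 interquartile ranges), and the median of all coding genes (white diamonds). The members' medians are 0.43 and 0.27 in FLAG native replicates 1 and 3 and -0.06 in replicate 2, while the coding medians stay between -0.03 and 0.06.

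Among the factors that carry the ribosome through elongation or hold its subunits apart, Eif5a2 came closest to a call. It encodes the less widely expressed copy of eIF5A, the protein that carries the amino acid hypusine and helps ribosomes at difficult peptide bonds. Its values were 1.93 and 2.11 in FLAG crosslinked, 1.30 and 1.44 in WT crosslinked, 2.29, 1.82 and 2.63 in FLAG native and 0.95, 1.52 and 0.87 in WT native. Every FLAG library thus lay above every WT library of either protocol. The difference over all libraries was 0.94 (SE 0.21, adjusted p = 0.0865 in limma), 0.65 (SE 0.14, adjusted p = 0.484) with crosslinking and 1.13 (SE 0.34, adjusted p = 0.237) native. Over the alternatives the all-library difference lay between 0.27, with a pseudocount of 8, and 1.03 (adjusted p = 0.0368 in limma), without FLAG native replicate 2, and its level was the lowest per kb of exon of the 49 members, at -0.64 on the log2 scale. Eif5a, the common copy, was at 3.70 and 3.35 in FLAG crosslinked, 3.16 and 3.21 in WT crosslinked, 5.92, 4.23 and 5.43 in FLAG native and 4.26, 4.60 and 3.90 in WT native. The crosslinked groups did not overlap, but FLAG native replicate 2 lay within the WT native range, and the difference over all libraries was 0.70 (SE 0.29, adjusted p = 0.213 in limma) and lay between 0.19, without FLAG native replicates 1 and 3, and 0.93 over the alternatives. Eif6, which keeps the large subunit from joining early, lay between 1.40 and 1.45 in all 4 crosslinked libraries, at 2.86, 1.77 and 2.03 in FLAG native and at 1.28, 1.37 and 1.44 in WT native. Its native groups did not overlap, and its crosslinked difference was 0.00 (SE 0.12).

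The 6 genes for start codon selection had a median difference of 0.25 with crosslinking, with 6 of 6 above 0, and of 0.77 native, with 5 of 6 above 0, and 0 passed the adjusted test. Their native median was 1.10 with 3 called higher without FLAG native replicate 2, and 0.08 without FLAG native replicates 1 and 3. Eif1b, a paralog of the start codon gatekeeper eIF1, was at 1.29 and 1.40 in FLAG crosslinked, 0.39 and 1.01 in WT crosslinked, 3.30, 2.23 and 2.67 in FLAG native and 1.82, 2.10 and 1.50 in WT native. All FLAG libraries exceeded the WT libraries of their protocol, by 0.82 (SE 0.23, adjusted p = 0.123 in limma) over all libraries, and by 0.27, with a pseudocount of 8, to 0.94 over the alternatives. Eif1, which scans for the start codon on the small subunit, was at 2.65 and 2.69 in FLAG crosslinked, 2.11 and 2.50 in WT crosslinked, 3.98, 3.31 and 4.38 in FLAG native and 3.25, 3.04 and 2.67 in WT native. It too showed no overlap in either protocol, and the difference was 0.69 (SE 0.22, adjusted p = 0.141 in limma). Of its exonic 75-base windows, 25.6% also occur in other genes, so its reads could be split or lost in mapping. Eif5b, the factor for subunit joining, differed by 0.04 with crosslinking and by -0.00 native. Over the 49 members, 6 (12.2%) lay above WT without overlap in both protocols (Eif1, Eif1b, Eif2s2, Eif3e, Eif3k and Eif5a2), against 4.84% of all genes, and 2 (4.08%) lay below (Eif3m and Eif4enif1), against 4.47%. In the native libraries alone it was 9 members above (18.4%) and 3 below (6.12%), against 8.62% and 10.8% of all genes. In the crosslinked libraries alone it was 11 above (22.4%) and 9 below (18.4%), against 19.1% and 19.9%.

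**Figure D3:**
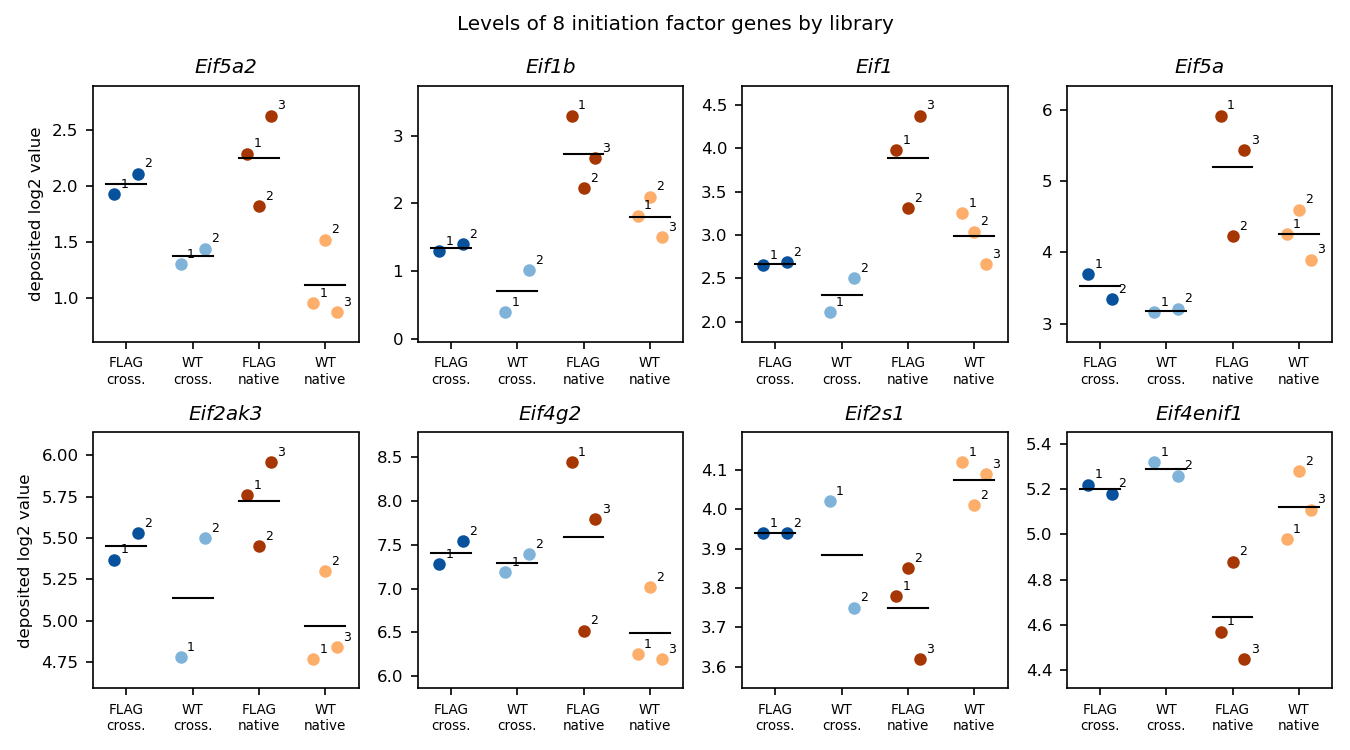
Deposited log2 values of 8 initiation factor genes in the 10 libraries (points, numbered by replicate), with the group means as black bars and a separate vertical scale for each gene. Eif5a2, Eif1b and Eif1 lie above WT in every FLAG library of the same protocol, whereas Eif4enif1 lies below.

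The subunits of eIF2 and its exchange factor showed small differences of both signs. Eif2s1 encodes the alpha subunit, which the stress kinases phosphorylate. Its values were 3.94 and 3.94 in FLAG crosslinked, 4.02 and 3.75 in WT crosslinked, 3.78, 3.85 and 3.62 in FLAG native and 4.12, 4.01 and 4.09 in WT native. The native FLAG libraries lay below all WT native libraries and the crosslinked groups overlapped, with a difference over all libraries of -0.17 (SE 0.12, adjusted p = 0.386 in limma). Eif2s2, the beta subunit, was 0.25 higher over all libraries, with an adjusted p of 0.250 in limma. Of the exchange factor subunits, Eif2b3 was at 3.73 and 3.76 in FLAG crosslinked, 3.86 and 3.69 in WT crosslinked, 3.44, 4.01 and 3.26 in FLAG native and 4.17, 3.77 and 4.30 in WT native. Its groups overlapped in both protocols, and the difference over all libraries was -0.32 (SE 0.18). Eif2b4 had the second lowest level per kb of exon (0.17) and was at 1.58 and 1.56 in FLAG crosslinked, 1.88 and 1.68 in WT crosslinked, 1.37, 1.31 and 1.43 in FLAG native and 1.28, 2.29 and 1.14 in WT native. Only its crosslinked groups were apart, and the difference over all libraries was -0.20 (SE 0.22).

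Among the 4 eIF2 kinases the largest differences had opposite signs. Eif2ak3, which encodes PERK, the kinase that senses unfolded protein in the endoplasmic reticulum, was at 5.37 and 5.53 in FLAG crosslinked, 4.78 and 5.50 in WT crosslinked, 5.76, 5.45 and 5.96 in FLAG native and 4.77, 5.30 and 4.84 in WT native. The native groups did not overlap, and WT crosslinked replicate 2 lay within the FLAG crosslinked range. Its difference was 0.75 native (SE 0.22, adjusted p = 0.233 in limma) and 0.58 over all libraries (SE 0.18, adjusted p = 0.138), and without WT crosslinked replicate 2 it was called, at 0.73 (adjusted p = 0.0400). That library is the WT library whose Ddx3y level was like that of the FLAG libraries, so without it the level of Ddx3y and genotype cannot be told apart. Eif2ak4, which encodes GCN2, the sensor of amino acid shortage, was at 4.66 and 4.73 in FLAG crosslinked, 4.85 and 4.76 in WT crosslinked, 4.42, 5.03 and 4.48 in FLAG native and 5.08, 4.93 and 5.27 in WT native. Only FLAG native replicate 2 reached the WT range of its protocol, and the difference over all libraries was -0.31 (SE 0.14, adjusted p = 0.239 in limma). Eif2ak1 and Eif2ak2, the kinases known for sensing haem and double-stranded RNA, differed by 0.01 and -0.05.

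The 13 genes of eIF3, the scaffold of the initiation complex, had a median difference of 0.04 with crosslinking and 0.40 native, and 10 of 13 were above 0 native. Without FLAG native replicate 2 the native median was 0.69 with 4 called higher and 1 lower, and without FLAG native replicates 1 and 3 it was -0.10 with 3 of 13 above 0. Eif3k was above WT without overlap in both protocols, at 2.32 and 2.17 against 2.10 and 2.15 with crosslinking and at 3.61, 2.72 and 3.21 against 2.33, 2.52 and 2.62 native, a difference of 0.46 over all libraries (SE 0.19, adjusted p = 0.213 in limma). Eif3f, with the pyrimidine tract shown above, was at 3.20 and 2.92 against 2.94 and 2.76 with crosslinking and at 4.70, 3.43 and 3.45 against 3.06, 3.39 and 3.13 native. Its native groups were separate only by 0.04 between FLAG native replicate 2 and WT native replicate 2. In the other direction, Eif3j1, a loosely attached subunit, was at 4.07 and 4.06 in FLAG crosslinked, 4.14 and 3.92 in WT crosslinked, 3.42, 3.92 and 3.10 in FLAG native and 4.00, 3.83 and 4.26 in WT native, a difference of -0.32 over all libraries (SE 0.18, adjusted p = 0.323 in limma). In total 37.7% of its exonic windows are shared with 1 other gene, so its level is uncertain.

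The cap-binding and scaffold genes did not share a direction. Eif4e, the cap-binding protein, was at 5.33 and 5.36 in FLAG crosslinked, 5.58 and 5.20 in WT crosslinked, 5.51, 5.19 and 5.44 in FLAG native and 5.57, 5.33 and 5.55 in WT native. The groups overlapped in both protocols and differed by -0.08 (SE 0.11). Eif4g1, the main scaffold, was at 6.31 and 6.24 in FLAG crosslinked, 6.21 and 6.21 in WT crosslinked, 7.27, 5.96 and 7.06 in FLAG native and 5.77, 6.53 and 5.99 in WT native. Eif4g2, a relative that lacks the eIF4E-binding part and serves cap-independent initiation, was at 7.28 and 7.54 against 7.19 and 7.39 with crosslinking, and at 8.44, 6.52 and 7.79 in FLAG native against 6.25, 7.02 and 6.20 in WT native. For both, FLAG native replicates 1 and 3 lay above all WT native libraries and replicate 2 lay among them. The differences over all libraries were 0.43 (SE 0.25) for Eif4g1 and 0.71 (SE 0.34, adjusted p = 0.258 in limma) for Eif4g2, and the native Eif4g2 difference became 1.63 (adjusted p = 0.0122) without FLAG native replicate 2 and 0.04 without replicates 1 and 3. Eif4g3, the third scaffold, lay between 8.03 and 8.55 in all libraries and differed by -0.12 (SE 0.10).

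Of the eIF4E inhibitors, Eif4ebp1 was at 1.64 and 2.12 in FLAG crosslinked, 1.35 and 2.30 in WT crosslinked, 2.15, 1.90 and 1.55 in FLAG native and 1.41, 1.99 and 1.76 in WT native, with overlap in both protocols and a difference of 0.11 (SE 0.23). Eif4ebp2, the form that is abundant in brain, was at 4.30 and 4.24 against 4.14 and 4.25 with crosslinking and at 5.87, 4.61 and 5.04 against 4.46, 4.85 and 4.30 native, a difference of 0.41 (SE 0.23, adjusted p = 0.304 in limma). Eif4enif1, which carries eIF4E into the nucleus and into processing bodies, had the most negative difference of the 49 members over all libraries. It was at 5.22 and 5.18 in FLAG crosslinked, 5.32 and 5.26 in WT crosslinked, 4.57, 4.88 and 4.45 in FLAG native and 4.98, 5.28 and 5.11 in WT native. Each FLAG library was below the WT libraries of its protocol, by 0.04 or more, and the difference was -0.33 (SE 0.13, adjusted p = 0.190 in limma). Eif4ebp3 shares 64.2% of its exonic windows with 1 other gene and its level is uncertain.

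The eIF4A helicases had the highest levels per kb of exon, 8.99 for Eif4a1 and 5.21 for Eif4a2 on the log2 scale, against a range of -0.64 to 5.03 for the other 47 members. Both genes hold small nucleolar RNA genes within exons annotated in any of their transcripts, coding or not, and the level of Eif4a1 followed one of these small RNAs. Such an exon may be intron in the coding mRNA. Eif4a1 was at 8.48 and 9.07 in FLAG crosslinked, 9.33 and 9.16 in WT crosslinked, 13.16, 12.46 and 13.24 in FLAG native and 13.24, 13.64 and 9.31 in WT native. Gm22988, a small nucleolar RNA at chr11:69669635-69669778 on the same strand, was at 7.98 and 8.30, 8.84 and 8.56, 13.00, 12.11 and 13.16, and 13.16, 13.39 and 9.22 in the same order. The 2 values differed by 0.08 to 0.77 in every library, including WT native replicate 3, in which both lacked the high native level. Reads of the small RNA and of the exon around it cannot be told apart in these values, and 62.9% of the windows of Eif4a1 also occur in 4 other genes. The FLAG over WT difference of Eif4a1 was 0.34 (SE 0.71, adjusted p = 0.778 in limma), and it was -0.48 without WT native replicate 3.

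Eif4a2, the helicase paralog named above for its protein, was at 7.95 and 8.84 in FLAG crosslinked, 8.95 and 9.03 in WT crosslinked, 8.38, 5.81 and 8.21 in FLAG native and 6.01, 7.0 and 6.07 in WT native. Its 2 protocols thus went opposite ways: both crosslinked FLAG libraries lay below both WT libraries, and 2 of 3 native FLAG libraries lay above all WT libraries while replicate 2 lay below them. The difference was -0.59 (SE 0.32, adjusted p = 0.748 in limma) with crosslinking, 1.11 (SE 0.62, adjusted p = 0.364) native and 0.43 (SE 0.51, adjusted p = 0.616) over all libraries. Without FLAG native replicate 2 the native difference was 1.94 (adjusted p = 0.00742), and without FLAG native replicates 1 and 3 the difference over all libraries was -0.58. The small RNAs Snora81 (1.26 to 5.02 native, 6.77 to 7.42 crosslinked) and Gm26447 (3.55 to 5.02 native, 6.26 to 8.01 crosslinked) lie in exons of its annotated transcripts, coding or not. Eif4a3, the helicase of the exon junction complex, was at 3.06 and 2.98 in FLAG crosslinked, 3.07 and 2.98 in WT crosslinked, 3.34, 3.12 and 3.23 in FLAG native and 3.16, 3.04 and 2.82 in WT native. It differed by 0.13 (SE 0.12) over all libraries. The cofactors Eif4b and Eif4h, which stimulate eIF4A, differed by 0.42 and 0.13.

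**Figure D4:**
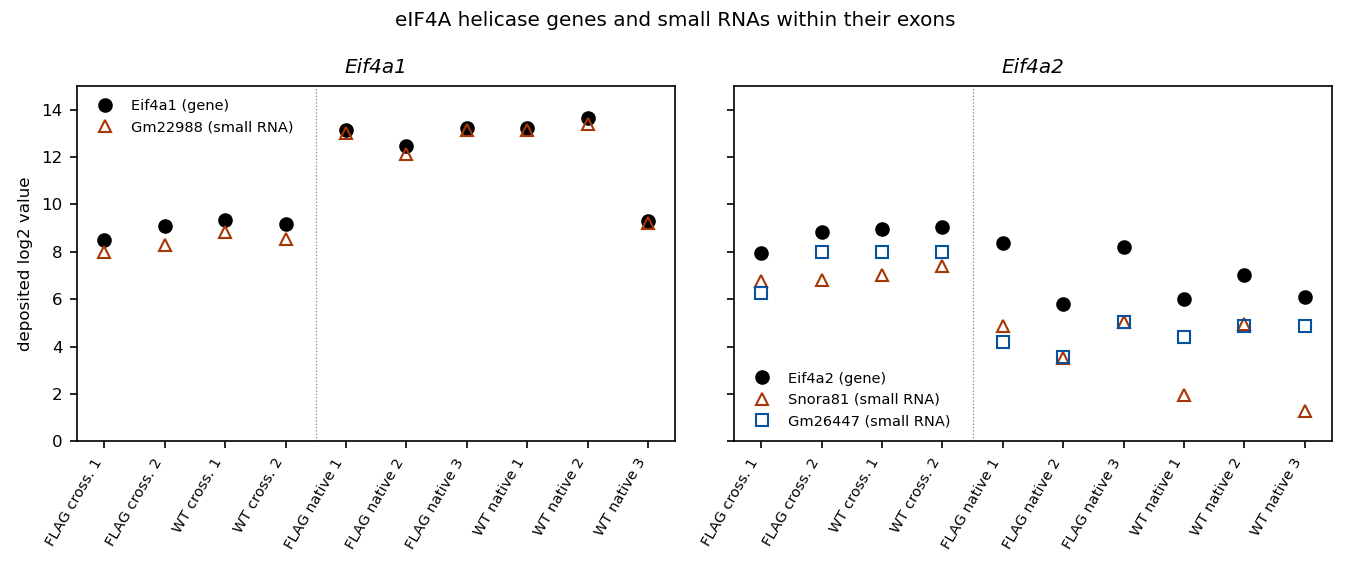
Deposited log2 values of Eif4a1 and Eif4a2 (black circles) and of small nucleolar RNAs inside exons of any of their annotated transcripts (open symbols) in the 10 libraries, with a dotted line between the crosslinked and the native libraries. Eif4a1 and Gm22988 lie within 0.77 of each other in every library, both near 13 in 5 of the 6 native libraries and near 9 in WT native replicate 3.

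The difference of the FLAG over WT effect between the 2 protocols was tested as an interaction. It was called for 0 of the 49 members and for 0% of all genes, and at an unadjusted p under 0.05 for 0 members and 0.415% of all genes. Without FLAG native replicate 2, 15 members were larger native and 2 smaller at an unadjusted p under 0.05, against 6.94% and 8.47% of all genes, and 0 were called after adjustment. With all libraries, the smallest p of a member was that of Eif6 (native minus crosslinked 0.85, adjusted p = 0.970 in limma). The opposite signs of Eif4a2 were therefore not shown to differ between the protocols.

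Between the protocols themselves, 4 of the 49 members (8.16%) were lower in the crosslinked than in the native libraries and 0 were higher, against 2.94% lower and 1.17% higher of all genes (limma, FLAG and WT libraries together with genotype as a covariate). Eif5a fell by 1.37 on the log2 scale (SE 0.30, adjusted p = 0.0271), Eif1b fell by 1.25 (SE 0.24, adjusted p = 0.0166) and Eif1 fell by 0.95 (SE 0.22, adjusted p = 0.0400). Eif4a1 fell by 3.50 (SE 0.72, adjusted p = 0.0219), where Gm22988 fell by 3.92 (adjusted p = 0.0133). The values given above show no overlap between protocols for Eif5a and Eif1b, whereas FLAG crosslinked replicate 2 exceeded WT native replicate 3 for Eif1 (2.69 against 2.67), and WT crosslinked replicate 1 exceeded it for Eif4a1 (9.33 against 9.31). In all, 8 members (16.3%) lay lower in every crosslinked than in any native library (Eif1b, Eif3c, Eif3g, Eif3k, Eif3l, Eif4ebp2, Eif5a and Eif5b), against 4.34% of all genes, and 0 lay higher, against 5.56%. Eif4a2 was 1.78 higher with crosslinking (SE 0.53) and missed the threshold (adjusted p = 0.0863). With the same-numbered libraries of each genotype as pairs, a replicate block added after the values were seen, 3 members stayed called (Eif1b, Eif4a1 and Eif5a), against 2.36% of all genes lower, and Eif1 fell by 0.91 and was not (adjusted p = 0.0541 in limma). With the replicate number alone as the block, 1 member was called, Eif4a1 (adjusted p = 0.0304). The calls depended on few libraries: without FLAG crosslinked replicate 1, FLAG crosslinked replicate 2 or WT crosslinked replicate 1 there were 0 lower. Of all genes, 225, 212 and 285 were then lower, in place of 467 with all libraries. Without FLAG native replicate 2 there were 7 members lower, against 768 genes, and within the WT libraries alone 0, against 2 genes.

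The native FLAG over WT differences were larger for genes with compact bodies. Over the 49 members, the native difference and the share of the gene body that is exon in any annotated transcript had a Spearman correlation of 0.62. The crosslinked difference had one of 0.27. Over 12207 coding genes they were 0.44 and 0.20, and all are descriptions over genes of the same libraries. In the native libraries the 19 members with exons under 20% of the body had a median of -0.03 with 8 above 0, the 16 with 20 to 35% had 0.32 with 13 above 0, and the 14 with 35% or more had 0.86 with 12 above 0. The medians of all coding genes in these classes were -0.15, 0.12 and 0.40. Eif1 (94.8% exon), Eif5a (45.3%) and Eif1b (36.3%) are compact, while Eif2ak4 (8.61%) and Eif2b3 (9.60%), with negative differences, are long genes with large introns. Of the members with exons under 20% of the body, Eif2ak3 (9.92%, native difference 0.75), Eif3c (17.6%, 0.62), Eif4b (19.1%, 0.62) and Eif3b (13.9%, 0.46) lay farthest above 0. The part of FLAG native replicates 1 and 3 in this relation was not tested.

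**Figure D5:**
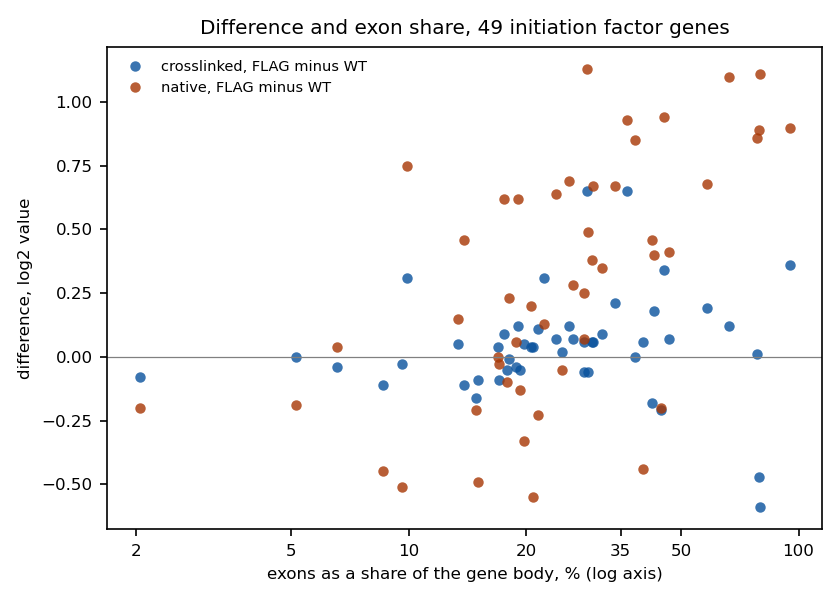
Log2 difference of FLAG minus WT of the 49 initiation factor genes against the share of the gene body that is exon (log axis), in the native (brown) and the crosslinked (blue) libraries, 1 point per gene and protocol. Native differences are mostly near or below 0 under 20% and mostly above 0 from 35% on (medians -0.03 and 0.86). Under 20%, Eif2ak3, Eif3c, Eif4b and Eif3b lie between 0.46 and 0.75 native.

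MRE matches were counted in the 3′ UTRs of the initiation factors and of all coding genes. In the longest annotated 3′ UTR, 32 of 49 members (65.3%, 95% Wilson interval 51.3 to 77.1, covering counting error only) held at least 1 match, against 77.2% of 12108 coding genes with a 3′ UTR. With the other form of the motif the shares were 71.4% (57.6 to 82.2) against 76.8%, and with merged exons 67.3% (53.4 to 78.8) against 78.3%. The differences were not tested, and the last 2 intervals hold the share of all coding genes. The members' 3′ UTRs were shorter, with a median of 957 against 1261 bases, and matches per kb were 2.54 against 2.8. Eif5a2, with the sites shown above, had 14 matches in 4391 bases and Eif1b 2 in 373 bases, but Eif1 and Eif5a had 0 in 735 and 639 bases. Eif3j1, with a negative difference, had 14 matches in 4500 bases, and Eif4enif1 had 0 in 499. A pyrimidine tract at the annotated start was found in 2 of 49 members (4.08%), against 2.18% of coding genes, and with any coding transcript counted in 4 (8.16%), against 5.45%.

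The other genes of the pathway were taken from a list of 41 factors of elongation, termination, poly(A) binding and signalling to translation, of which 38 were in the matrix. Of these, 0 were called in any FLAG over WT comparison. At an unadjusted p under 0.05, 5 (13.2%) were higher and 0 lower over all libraries, against 7.24% and 5.28% of all genes, and the median difference was 0.11, with 23 of 38 above 0. Eef1a1, which brings aminoacyl-tRNA to the ribosome, was at 6.81 and 6.44 in FLAG crosslinked, 5.92 and 6.0 in WT crosslinked, 9.02, 7.30 and 8.58 in FLAG native and 6.99, 7.62 and 6.72 in WT native, a difference of 0.98 (adjusted p = 0.137 in limma). Pabpc1, the cytoplasmic poly(A)-binding protein, differed by 0.89 (adjusted p = 0.137), and Ppp1r15b, which directs the dephosphorylation of eIF2, by 1.26 (adjusted p = 0.118). Mtor differed by -0.14 and Rptor by -0.31. Between protocols, Eef1a1 fell by 1.41 (adjusted p = 0.0277) and Eef1b2 fell by 0.95 (adjusted p = 0.0200) with crosslinking, like Eif1 and Eif5a, while Rps6kb2 (0.84, adjusted p = 0.0324) and Paip2 (0.59, adjusted p = 0.0422) were higher.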

How the data were processed

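RIP-seq libraries from 10 immunoprecipitates were analysed. Per the study's methods and the submitters' processing notes, reads of 75 nt went through Cutadapt and Trimmomatic, were aligned by HISAT2 to GRCm38 and were assigned to genes by featureCounts. The authors deposited 1 matrix of normalized, filtered log2 values for 15899 genes. The methods name DESeq2 for normalizing the raw counts and the submitters' processing notes list limma; which of them made this matrix is not stated. The values, taken out of log2, summed to between 949427 and 949437 in every library, and the depth is unknown. Strand use in counting was not given either. Groups came from the labels.

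Deposited values were tested in limma 3.58.1 (R 4.3.3, lmFit, eBayes with trend), with no pseudocount. The steps were tested on simulated data. Alternatives were pseudocounts of 1 and 8, a minimum mean of 3, centring, quantile normalization, a replicate block, array weights, no trend, 1 fit of 4 groups and each library left out. Same-numbered crosslinked and native libraries of a genotype were taken as pairs because their deviations from the group means correlated above 0.1 in all 4 pairs (0.154 to 0.388). Some libraries with unlike numbers also did, such as FLAG native replicate 2 with WT native replicate 3 (0.401). Gene models were those of GENCODE M21 (15864 genes found), with sequence from GRCm38. A level per kb is the mean log2 value minus log2 of exon length. Exons were joined over all annotated transcripts of a gene, coding or not, for this length, the exon share and the small RNAs within exons. Sequence that is intron in the coding mRNA can therefore count as exon.

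Members and lists were chosen with earlier results of these data known. Values per library are given for the 4 largest differences in each direction over all libraries, the eIF4A genes, Eif2s1, Eif4e, Eif4g1, Eif4ebp1, Eif4ebp2 and the extreme levels per kb. Eif1, Eif2ak3, Eif3f, Eif3k, Eif4g3, Eif6 and the small RNAs were named after their values were seen.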

Additional observations from a re-analysis of the deposited data

How the results depend on the processing

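The count of called members in the crosslinked comparison and in the test of the difference between protocols stayed at 0 under every alternative run. In the native comparison it was 0 higher and 0 lower, but 14 and 3 with array weights, which also moved the median to 0.42. Of all 15899 genes, array weights called 1656 higher and 1921 lower there. Leaving out 1 library gave 0 to 15 higher and 0 to 3 lower, with a median of 0.17 to 0.46, and without FLAG native replicates 1 and 3 the median was -0.06. Over all libraries, array weights gave 4 higher members (Eif1b, Eif2ak3, Eif4ebp1 and Eif5a2) and a median of -0.03. In that fit 1105 of all 15899 genes were called higher. FLAG crosslinked replicate 2 (weight 10.2) and WT crosslinked replicate 1 (9.02) counted most in it, beside 0.124 to 1.36 for the other libraries. Leaving out 1 library gave 0 to 1 higher and a median of 0.08 to 0.29, and without FLAG native replicates 1 and 3 it was -0.01. The median difference between protocols lay between 0.06 and 0.39. For crosslinked over native, the count of lower members was 4, and was 1 with the replicate number as a block, 1 with a pseudocount of 8, 2 with a minimum mean of 3, 2 without FLAG native replicates 1 and 3, 0 within the WT and 1 within the FLAG libraries, and 0 to 7 with 1 library left out. Of all genes 467 were lower, and in the same order 269, 146, 133 (of 7569 tested), 367, 2 and 8, and 212 to 768. The count of higher members was 3 with array weights, where 1034 of all 15899 genes were higher. It was 2 without FLAG native replicates 1 and 3, where 249 genes were higher, and 0 to 1 with 1 library left out.

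Over all libraries, 34 members were above 0, but 24 with array weights and 22 without FLAG native replicates 1 and 3. Of the genes named by the rule, signs turned for Eif4a1 (-0.16 with array weights, -0.48 to 0.70 with 1 library left out, the first of these without WT native replicate 3, -0.10 without FLAG native replicates 1 and 3), Eif4a2 (-0.16 with array weights, -0.58 without FLAG native replicates 1 and 3), Eif4a3 (-0.05 with array weights), Eif4ebp1 (-0.03 to 0.27 with 1 library left out, the first without WT crosslinked replicate 1) and Eif4g1 (-0.02 without FLAG native replicates 1 and 3). The 4 members lower with crosslinking kept their direction in every alternative run, with the call lost in 42 combinations of gene and alternative. The causes were not tested. The MRE share was 71.4% with the other form of the motif (76.8% of all coding genes) and 67.3% with merged exons (78.3%).

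Same-numbered FLAG and WT libraries did not deviate together, with correlations of -0.149, -0.43 and -0.167 native and -0.274 crosslinked. With 2 libraries in each crosslinked group, crossed numbers give the same value with the other sign (0.274), so it is not a separate check. With the replicate block, 0 members were called in each FLAG over WT comparison, and also over all libraries with the block set within each genotype, and with the crossed numbers as a block 0 were called with crosslinking. The unknown depth limits what can be said of weak genes such as Eif5a2.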

Other observations

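Genes with an Eif symbol that lay on a sex chromosome or were not protein-coding were left out of the members. Eif2s3x, the gene on chromosome X for the gamma subunit of eIF2, was at 3.56 and 3.59 in FLAG crosslinked, 2.94 and 3.46 in WT crosslinked, 4.47, 3.66 and 4.46 in FLAG native and 2.84, 3.61 and 2.96 in WT native, a difference of 0.79 over all libraries (adjusted p = 0.130 in limma). Its copy on chromosome Y, Eif2s3y, lay between 4.01 and 4.95 in WT crosslinked replicate 1 and the WT native libraries and between -5.67 and -0.12 in the others. Eif1ax, on chromosome X, was at 3.59 and 3.70, 3.24 and 2.84, 4.47, 3.71 and 4.24, and 3.75, 3.43 and 3.51 in the same order of groups, a difference of 0.59 (adjusted p = 0.113 in limma). The Eif4a pseudogene Eif4a-ps4 lay above WT without overlap in crosslinked FLAG libraries, at 1.04 and 1.04 against 0.01 and 0.18, and its native groups overlapped. Eif2s3y was at -4.66 in WT crosslinked replicate 2, within the range of the FLAG libraries, so its level did not follow genotype there.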
